A study of Homo sapiens with 12 samples.

Results

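CD163 and 9 other scavenger receptor genes, MSR1, MARCO, CD36, SCARB1, SCARB2, CD68, OLR1, STAB1 and CXCL16, were followed on bead arrays of THP-1, a human monocytic leukaemia cell line. All probes that the platform annotation gives to these 10 genes were taken, whatever their values, which came to 19 of the 47323 probes in the table. A probe was tested when its log2 level lay above 7.26 on at least 2 arrays, a background level estimated from the dimmest values, and 12 probes of 7 of the genes met this. There were 12 arrays, 1 for each of 6 CRISPR lines with each of 2 lentiviruses, 1 carrying KLF4, a zinc finger transcription factor of monocyte differentiation, and 1 empty (ECV). Lines NT-2 and NT-3 received non-targeting CRISPR constructs, lines 150-3 and 150-4 constructs against miR-150, and lines p21-2 and p21-3 constructs against p21, the cell cycle inhibitor encoded by CDKN1A. All cells were THP-1, collected on day 5 after infection and 17 days after CRISPR selection, so the ECV controls carry the CRISPR constructs as well. The labels do not say whether a line is a clone or a pool, or which promoter drives KLF4. They also do not say how independently the 2 lines of a target were made, so the spread behind the p-values, that between lines, may be technical.

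Scavenger receptors are surface or lysosomal membrane proteins with which macrophages bind and take up modified lipoproteins, dying cells, bacteria and spent plasma proteins. CD163 clears complexes of haemoglobin and haptoglobin, and its soluble form is released when proteases cut it from the cell surface. The class A receptors MSR1 and MARCO carry collagen-like stalks, the class B receptors CD36, SCARB1 and SCARB2 cross the membrane at both ends, and CD68 is a heavily glycosylated protein of macrophage endosomes and lysosomes.

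RefSeq promoter windows, from 250 bases before to 50 bases after a transcription start on GRCh38.p14, were found for 6 of the 10 genes, 11 windows in all, and none was used for MSR1, SCARB1, OLR1 and CXCL16. The windows of CD163, CD68 and MARCO are shown because these were the genes whose KLF4 arrays all lay above the ECV arrays. Capitals mark matches on either strand to CACCC, the core of binding sites for KLF factors (GGGTG when read on the other strand), and to GAGGAA, the core of sites for the myeloid factor PU.1 (TTCCTC on the other strand). The longer form CACACCC, which contains CACCC, was searched as well. The window of CD163 lies at chr12:7503728-7504027 on the minus strand, that of CD68 at chr17:7579388-7579687 on the plus strand and that of MARCO at chr2:118941944-118942243 on the plus strand.
CD163: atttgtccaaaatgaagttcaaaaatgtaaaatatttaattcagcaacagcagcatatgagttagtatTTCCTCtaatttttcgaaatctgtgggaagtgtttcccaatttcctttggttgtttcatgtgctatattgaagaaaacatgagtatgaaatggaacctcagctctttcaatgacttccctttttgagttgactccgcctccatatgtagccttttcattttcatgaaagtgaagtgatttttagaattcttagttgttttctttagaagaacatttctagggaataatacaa
CD68: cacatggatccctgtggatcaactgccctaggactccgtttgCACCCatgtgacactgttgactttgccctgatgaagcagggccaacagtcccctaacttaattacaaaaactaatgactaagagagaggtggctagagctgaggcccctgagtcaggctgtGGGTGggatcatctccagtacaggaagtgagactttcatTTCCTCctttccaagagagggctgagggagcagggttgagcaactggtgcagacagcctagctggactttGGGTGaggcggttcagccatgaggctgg
MARCO: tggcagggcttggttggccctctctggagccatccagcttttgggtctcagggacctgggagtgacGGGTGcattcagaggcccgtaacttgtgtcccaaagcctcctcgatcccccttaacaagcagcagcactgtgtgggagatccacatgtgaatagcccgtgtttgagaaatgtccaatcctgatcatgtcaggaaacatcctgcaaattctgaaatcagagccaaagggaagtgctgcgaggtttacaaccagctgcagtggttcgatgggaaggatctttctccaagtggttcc
The CD163 window held 1 GAGGAA and 0 CACCC, the CD68 window 1 GAGGAA and 3 CACCC, and the MARCO window 1 CACCC and 0 GAGGAA. None of these 3 windows held CACACCC. The SCARB2 window held none of these motifs and the STAB1 window 1 CACCC and 1 GAGGAA, while of the 6 windows of CD36 4 held CACCC, 3 CACACCC and 4 GAGGAA, and some of these windows overlap. Among all 35116 windows of this length, 59.9% held CACCC, 7.56% CACACCC and 27.9% GAGGAA. A match is a string of letters in a window and not a bound site.

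The cells expressed the monocytic marker list, with all 15 markers of the list that are on the array above background on at least 2 arrays, among them LYZ, CSF1R and ITGB2. Of the 4 T cell markers on the array 0 were tested, and B cell, erythroid and epithelial markers stayed at or below a log2 level of 7.479 on every array. The non-targeting lines with KLF4 were the pair that differed most from each other, with a root mean square SD over kept probes of 0.178, against 0.0911 to 0.109 in the other 5 groups. The KLF4 probes themselves do not check the virus, since they differed by -0.10 (adjusted p = 0.22) and -0.23 (adjusted p = 0.00963) with KLF4 virus, and the labels do not say which part of KLF4 the virus carries. CDKN1A, the gene targeted in the p21 lines, was higher with KLF4 virus by a log2 difference of 2.58. Its kept probe read 9.11 and 8.88 with ECV in p21-2 and p21-3 and between 9.16 and 9.37 in the other lines, and with KLF4 11.08 and 11.37 against 11.66 to 12.48. The p21 lines thus kept CDKN1A signal, the labels do not place the probe relative to the CRISPR site, and editing of p21 or miR-150 was not checked here. The 12 arrays hold RNA from whole cultures, in which fewer cells of a type and less RNA per cell cannot be told apart.

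Averaged over the 3 CRISPR targets, KLF4 virus raised the brightest probes of CD163, CD68, MARCO, SCARB2 and CXCL16 and lowered that of SCARB1, while CD36 did not pass the test. The rises ranged from a log2 difference of 4.14 for CD163 to 0.17 for CXCL16. By probe, 9 were called higher and 1 lower at an adjusted p under 0.05, where 14.5% of the 22521 kept probes were called higher and 19.2% lower. A pair of CD163 probes entered the fit only because their KLF4 arrays were bright, so this count was also read without any filter. Over all 19 probes 10 were then called, 9 of them higher, against 15.7% of all 47323 probes called in either direction. The median difference over the 19 probes was 0.05, against -0.003 over all probes. The KLF4 and ECV arrays did not overlap for 7 of the 12 kept probes, and this held for 19.5% of all kept probes. That pair of CD163 probes is among the 7, and the filter favoured such an outcome for them. The share without overlap among all probes, with no filter, was not computed.

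CD163 went from the background level to a clear signal in every line. On its brightest probe, 1722622, the 6 ECV arrays lay between 7.19 and 7.37. With KLF4 the same probe read 12.70 in NT-2, 10.82 in NT-3, 10.72 in 150-3, 11.78 in 150-4, 10.89 in p21-2 and 11.67 in p21-3. The lowest KLF4 array, 150-3, was thus more than 3 log2 units above the highest ECV array, 150-4. The mean difference was 4.14 (SE 0.25, 95% interval 3.61 to 4.67, adjusted p = 8.89e-09), a measured 17.6-fold rise, seen in 6 of 6 lines. Over the 6 lines the difference had an SD of 0.783. The interval rests on 1 spread shared with the ECV groups, which lie near background, and may be too narrow. Since the ECV arrays lie at the background level, 5 of 6 just above it, the true fold may be larger.

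The other 2 CD163 probes were not above background on any ECV array. Probe 2379599 lay between 6.97 and 7.12 with ECV and between 10.57 and 12.33 with KLF4, with a median of 11.01. Its difference was 4.09 (SE 0.212, adjusted p = 2e-09), and set against the background level the rise was at least 15.1-fold. Probe 1733270 lay between 7.14 and 7.20 with ECV and between 9.46 and 11.20 with KLF4. Its difference was 2.92 (SE 0.199, adjusted p = 3.5e-08), at least 7.05-fold against the background level. The annotation ties probes 1722622 and 2379599 to one CD163 transcript record and probe 1733270 to another, and which transcripts each can detect was not examined. Probes 1722622 and 2379599 gave rises of nearly the same size, and that of probe 1733270 was smaller.

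**Figure D1:**
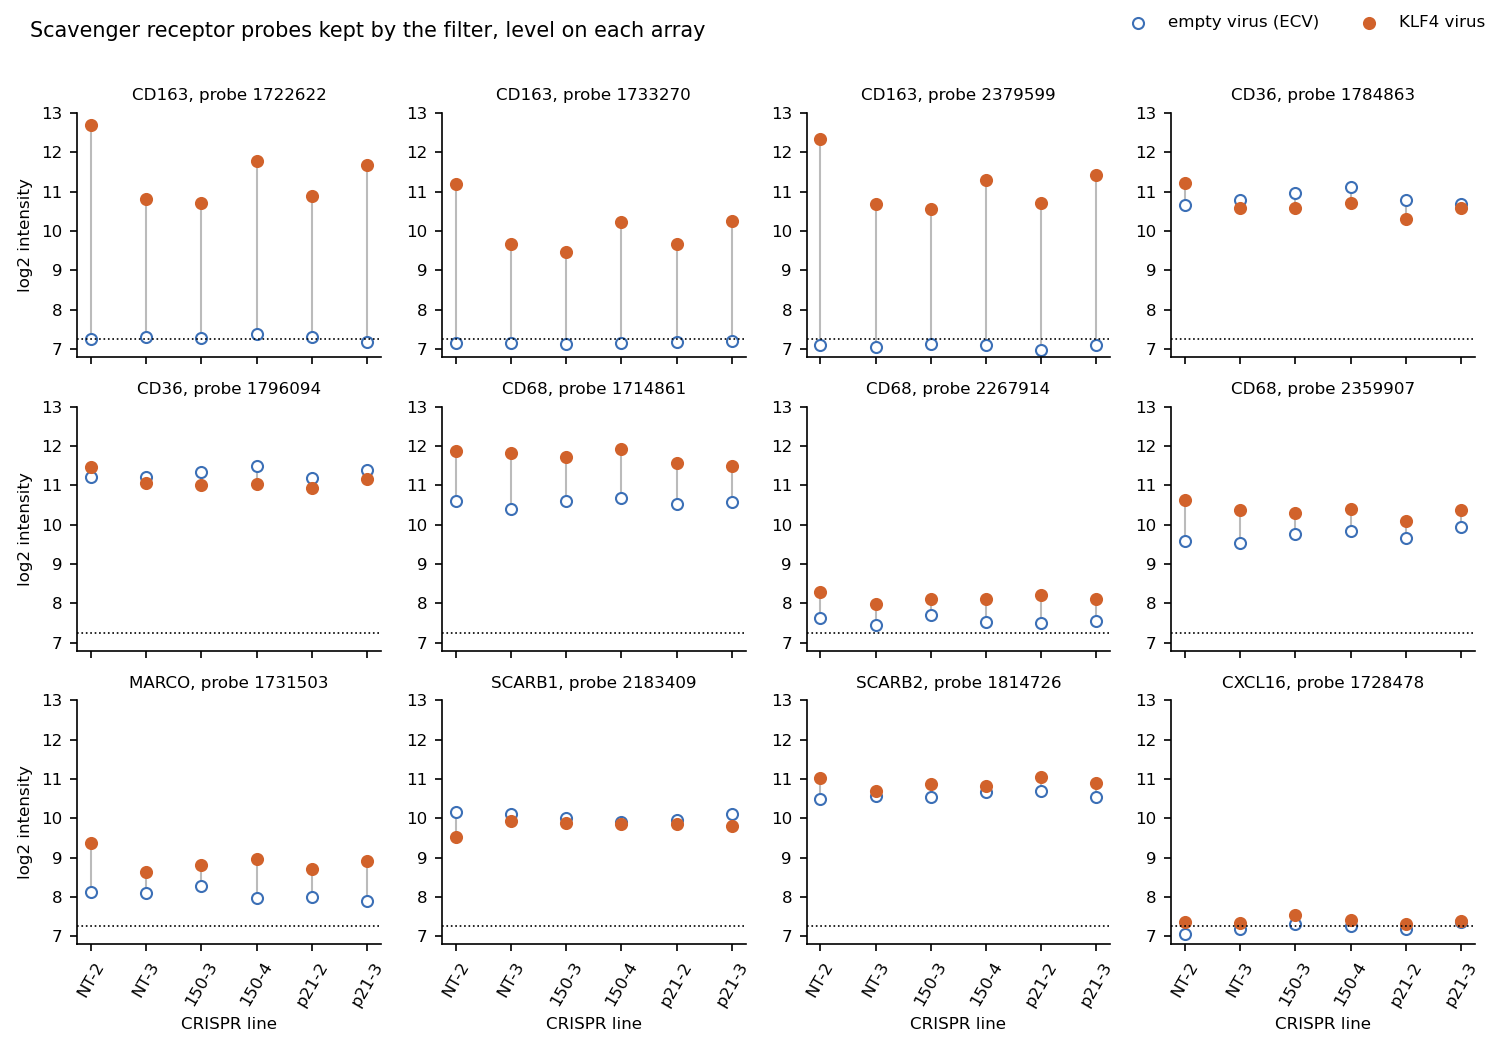
Log2 level of each of the 12 kept scavenger receptor probes (vertical axis, log2 intensity) on the array of each CRISPR line (horizontal axis) with empty virus (open circles) and KLF4 virus (filled circles), joined by a grey line, and the background level of 7.26 as a dotted line. The CD163 panels run from the dotted line with empty virus to between 9.46 and 12.70 with KLF4, CD68 and MARCO shift upward in all 6 lines, and the circles of CD36, SCARB1, SCARB2 and CXCL16 overlap between viruses.

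The size of the CD163 rise differed between lines. On probe 1722622 the KLF4 minus ECV difference was 5.43 in NT-2, 3.51 in NT-3, 3.43 in 150-3, 4.41 in 150-4, 3.59 in p21-2 and 4.48 in p21-3. Line NT-2 was the highest on all 3 CD163 probes, at 5.43, 5.22 and 4.04. Without NT-2 the mean over the other 5 lines was 3.88 on probe 1722622, 3.87 on probe 2379599 and 2.69 on probe 1733270. The line values of probes 2379599 and 1733270 are taken against ECV arrays that are not above background, and the true differences may be larger. Within each target 1 line was brighter with KLF4 than the other, NT-2 above NT-3 by 1.88 log2 units of KLF4 level, 150-4 above 150-3 by 1.06 and p21-3 above p21-2 by 0.78. In the ECV arrays the same pairs differed by -0.04, 0.09 and -0.11, but these arrays lie near background, where a difference between lines may not show. The order NT-2, 150-4 and p21-3 above their partners was noticed after the values were seen. With KLF4 it held for 7 of the 12 kept receptor probes, the 3 CD163 probes, both CD36 probes, MARCO and CD68 probe 2359907, and for 14.7% of all kept probes. Because the order was read from CD163, its own 3 probes are no support, and among the 9 other kept receptor probes it held for 4.

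PPBP, a platelet chemokine, showed the same order of lines. Its KLF4 minus ECV difference was 3.84 in NT-2 and 1.42 in NT-3, 2.46 in 150-4 and 1.16 in 150-3, and 2.89 in p21-3 and 1.35 in p21-2. It was the only megakaryocyte marker tested, with a mean rise of 2.19 (SE 0.361, adjusted p = 0.000223). The other megakaryocyte markers, ITGA2B and PF4, stayed below background on all 12 arrays. The summed linear intensity of the 3 markers ran from 463 to 529 with ECV and from 784 to 3825 with KLF4, the highest in NT-2. The part of this marker in the CD163 values was not tested.

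Among the class A receptors MARCO, which binds bacteria and inhaled particles, rose in every line. Its probe 1731503 lay between 7.90 and 8.28 with ECV, with a median of 8.05, and between 8.65 and 9.38 with KLF4, with a median of 8.87. No KLF4 array overlapped the ECV range, and NT-2 was the highest. The mean difference was 0.84 (SE 0.0998, 95% interval 0.62 to 1.05, adjusted p = 1.1e-05), a 1.79-fold rise. By line it was 1.24 in NT-2, 0.55 in NT-3, 0.54 in 150-3, 0.98 in 150-4, 0.71 in p21-2 and 1.01 in p21-3.

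MSR1, the macrophage receptor for modified low density lipoprotein, was not seen in these cells with either virus. Its 3 probes ranged from 6.93 to 7.41 and reached the background level on at most 1 array each. The highest value, 7.41 on probe 1743301, came from NT-3 with ECV. The KLF4 minus ECV differences were -0.05, -0.02 and 0.05, with exact two-sided permutation p-values of 0.2208, 0.842 and 0.3939 over the 924 splits of the arrays, of which the smallest possible is 0.002165. A change of MSR1 below background could not be detected on these arrays.

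The class B receptor CD36, which takes up oxidised lipoproteins and long-chain fatty acids, was bright with both viruses and did not pass the test. Probe 1796094 lay between 11.19 and 11.49 with ECV and between 10.94 and 11.48 with KLF4, and probe 1784863 between 10.66 and 11.12 and between 10.30 and 11.21. The ranges of the viruses overlapped on both probes. The mean differences were -0.18 (95% interval -0.34 to -0.03, adjusted p = 0.0623) and -0.17 (95% interval -0.36 to 0.03, adjusted p = 0.183). Line NT-2 stood apart from the rest. There CD36 was higher with KLF4 by 0.26 and 0.55, whereas in the other 5 lines it was lower, by log2 differences from -0.45 to -0.14 on probe 1796094 and from -0.48 to -0.10 on probe 1784863. Without the NT-2 array with KLF4 the mean differences were -0.252 and -0.269. That array was singled out here by its own CD36 values, and its group then holds 1 array. No call is therefore drawn from that fit. With the CRISPR line as a replicate block, which pairs the viruses within a line, probe 1796094 passed, with an adjusted p of 0.0346. The remaining CD36 probe, 1665132, stayed between 6.86 and 7.16 on all arrays, below background, with a difference of -0.03 (exact permutation p = 0.5758).

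SCARB1, the receptor for high density lipoprotein, was the one member that fell. Its probe 2183409 lay between 9.91 and 10.16 with ECV and between 9.52 and 9.94 with KLF4, so the highest KLF4 array overlapped the lowest ECV array. The mean difference was -0.24 (SE 0.0666, 95% interval -0.38 to -0.10, adjusted p = 0.0116). It was lower with KLF4 in 6 of 6 lines, by -0.64 in NT-2 and by -0.06 to -0.32 in the other 5, whose mean was -0.16.

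SCARB2, a lysosomal membrane protein that carries glucocerebrosidase to the lysosome, rose slightly. Its probe 1814726 lay between 10.51 and 10.71 with ECV and between 10.71 and 11.05 with KLF4, with medians of 10.56 and 10.88. The ranges touched, since the lowest KLF4 array, NT-3, lay just below the highest ECV array, p21-2. The mean difference was 0.31 (SE 0.0641, 95% interval 0.17 to 0.44, adjusted p = 0.00156), and it was higher in 6 of 6 lines, from 0.13 in NT-3 to 0.53 in NT-2.

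CD68 rose in all 6 lines on all 3 of its probes. On probe 1714861 the ECV arrays read between 10.39 and 10.67, with a median of 10.59, and the KLF4 arrays between 11.49 and 11.94, with a median of 11.77. The difference was 1.17 (SE 0.0573, 95% interval 1.05 to 1.29, adjusted p = 1.13e-09), a 2.25-fold rise. By line it was 1.26 in NT-2, 1.43 in NT-3, 1.12 in 150-3, 1.26 in 150-4, 1.03 in p21-2 and 0.91 in p21-3, with an SD of 0.188 over lines. Probe 2359907 went from between 9.55 and 9.93 to between 10.09 and 10.64, and probe 2267914 from between 7.45 and 7.69 to between 7.98 and 8.30. Neither probe overlapped between viruses. Their rises were smaller, at 0.64 (adjusted p = 3.84e-06) and 0.58 (adjusted p = 4.5e-06), so the size of the CD68 rise depended on the probe.

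The remaining receptors were dim. OLR1, the lectin-like receptor for oxidised low density lipoprotein, lay between 6.96 and 7.13 on all arrays and differed by 0.01 between viruses (exact permutation p = 0.71). STAB1, a receptor of sinusoidal endothelium and of some macrophages, lay between 6.96 and 7.21 and differed by 0.05 (exact permutation p = 0.197). Neither reached the background level on any array. CXCL16, at once a membrane-bound chemokine and a scavenger receptor for oxidised lipids, has 2 probes. Probe 1672278 stayed below background, with a difference of -0.03 (exact permutation p = 0.4675). Probe 1728478 lay between 7.06 and 7.37 with ECV, above background on 3 of 6 arrays, and between 7.32 and 7.54 with KLF4, above it on all 6. Its difference of 0.17 (SE 0.0538, adjusted p = 0.0253) passed the test, with overlapping ranges. That call ended when any of 5 arrays was left out, NT-2 with ECV, 150-3 with KLF4, 150-4 with ECV, p21-2 with ECV or p21-3 with KLF4, with adjusted p-values up to 0.0883.

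**Figure D2:**
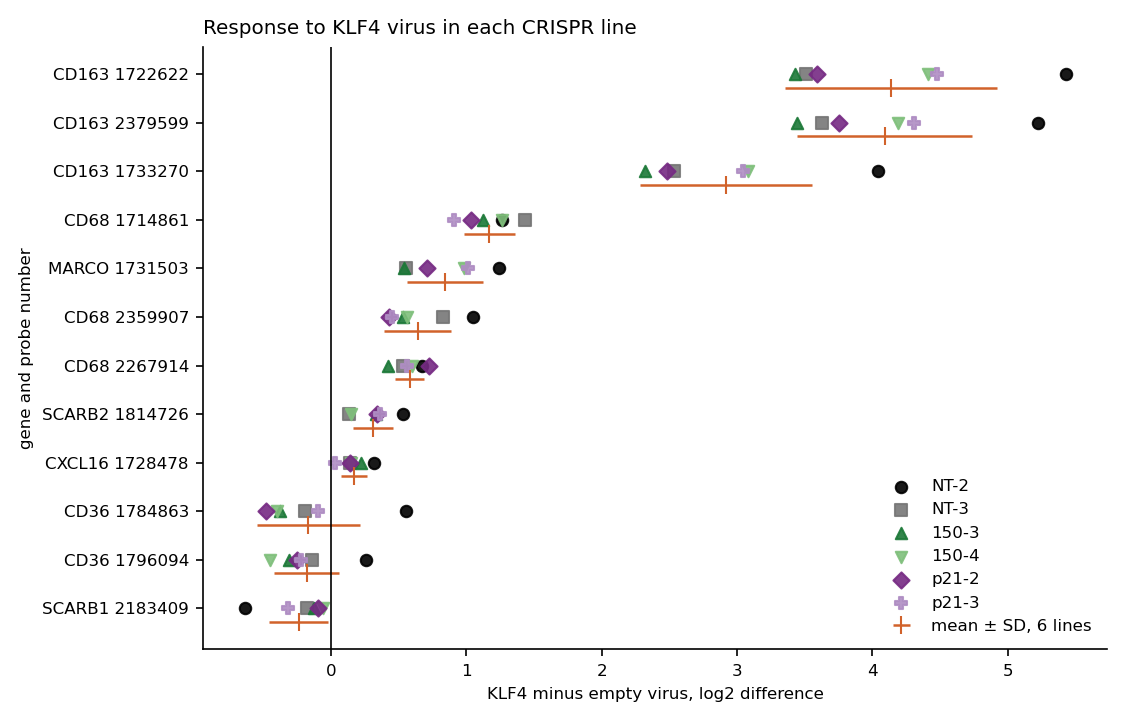
KLF4 minus empty virus difference (horizontal axis, log2) of each kept scavenger receptor probe (vertical axis) in each of the 6 CRISPR lines (symbols), with the mean and SD over lines below each row. The CD163 points lie between 2.32 and 5.43 with NT-2 highest, the CD36 points lie below 0 except NT-2, and the SCARB1 points all lie below 0.

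**Figure D3:**
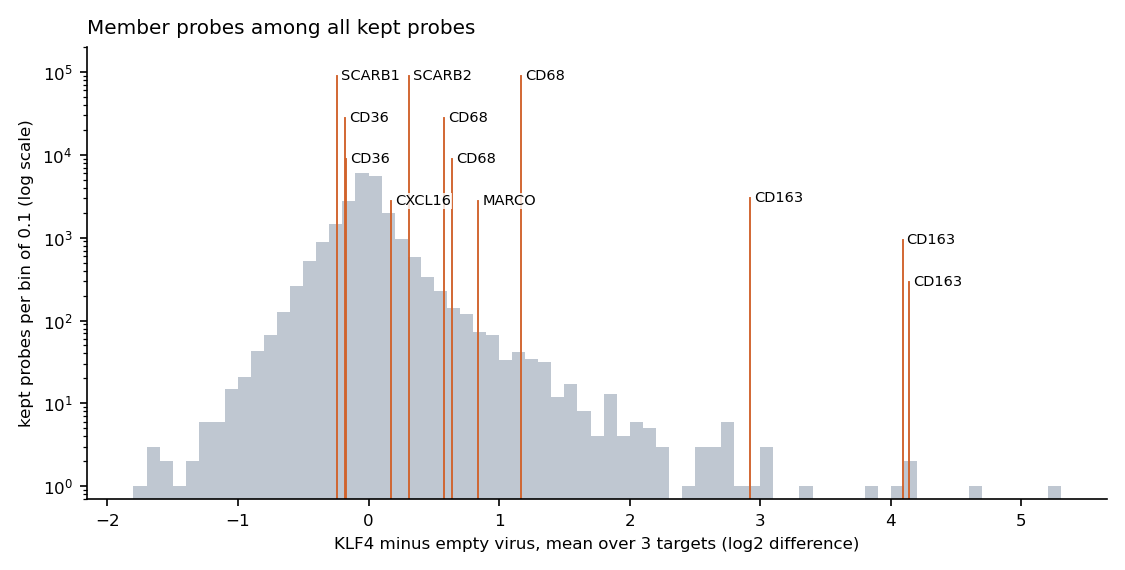
Number of kept probes (vertical axis, log scale) by mean KLF4 minus empty virus difference (horizontal axis, log2, bins of 0.1), with the 12 kept scavenger receptor probes as vertical lines whose height has no meaning. The CD163 probes at 2.92, 4.09 and 4.14 lie in the sparse upper tail, and CD36, SCARB1, SCARB2 and CXCL16 lie within the bulk of all probes.

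Within each CRISPR target the rises of CD163, CD68 and MARCO were called as well. Each difference came from the arrays of its own target, but the 3 tests shared 1 spread estimated from all arrays. The mean KLF4 effect is the average of these 3 differences, so the calls are not separate from it. In non-targeting lines 8 receptor probes were called higher and 1 lower, with 20.5% of kept probes called in either direction. That background split into 2099 probes higher and 2521 lower, and into 2511 and 1930 after cyclic loess normalization. In miR-150 lines 7 were called higher and 0 lower, against 12.4%, and in p21 lines 8 higher and 0 lower, against 14.3%. These counts hold the CD163 probes that the filter kept only for their KLF4 arrays. Without a filter 7 of the 19 probes were called higher in each target, and 1 lower in non-targeting lines alone. Of all 47323 probes 4461 were then called in non-targeting lines, 2690 in miR-150 lines and 3123 in p21 lines, in either direction. CD163 probe 1722622 rose by 4.47 (SE 0.433, adjusted p = 5e-06) in non-targeting lines, by 3.92 (adjusted p = 2.67e-05) in miR-150 lines and by 4.03 (adjusted p = 2e-05) in p21 lines. CD68 probe 1714861 rose by 1.35, 1.19 and 0.97 in the same order, with adjusted p-values of 4.35e-07, 2.19e-06 and 1.27e-05. MARCO rose by 0.89 (adjusted p = 0.00192), 0.76 (adjusted p = 0.00884) and 0.86 (adjusted p = 0.00368). The MARCO call ended in miR-150 lines without the 150-4 array with ECV (adjusted p = 0.115) or with KLF4 (adjusted p = 0.0907), and in p21 lines without the p21-3 array with KLF4 (adjusted p = 0.0587).

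The small differences were less firm within a target. SCARB2 passed in non-targeting lines at 0.33 (adjusted p = 0.0486) and in p21 lines at 0.35 (adjusted p = 0.0496), and these calls ended under 16 and 13 of the 21 alternatives tried, with adjusted p-values up to 0.424 and 0.312. SCARB1 was called lower in non-targeting lines at -0.41 (adjusted p = 0.0199). Without the NT-2 array with KLF4 it stood at -0.201 (adjusted p = 0.269), and the call also ended without NT-2 with ECV (adjusted p = 0.108) or NT-3 with ECV (adjusted p = 0.0764). In miR-150 and p21 lines SCARB1 differed by -0.09 (adjusted p = 0.694) and -0.21 (adjusted p = 0.279). CD68 probe 2267914 rose by 0.51 in miR-150 lines (adjusted p = 0.00643), a call that ended without the 150-4 array with ECV (adjusted p = 0.0852) or with KLF4 (adjusted p = 0.0532). CD68 probe 2359907 rose by 0.55 in miR-150 lines (adjusted p = 0.00685) and by 0.44 in p21 lines (adjusted p = 0.0222). Those calls ended without 150-3 with ECV (adjusted p = 0.0734) or 150-4 with KLF4 (adjusted p = 0.074), and without p21-2 with ECV (adjusted p = 0.236) or p21-3 with KLF4 (adjusted p = 0.261). CXCL16 and the CD36 probes passed in none of the 3 targets. CD36 probe 1796094 differed by -0.38 in miR-150 lines (adjusted p = 0.064), and with the CRISPR line as a replicate block it passed there (adjusted p = 0.0359). In non-targeting lines CD36 probe 1784863 differed by 0.18, but by 0.49 without NT-3 with KLF4 and by -0.126 without NT-2 with KLF4.

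The response of the receptors to KLF4 in lines with constructs against miR-150 or p21, called edited lines by their label alone, was compared with that in non-targeting lines as a difference of KLF4 effects. For CD163 probe 1722622 it was -0.55 for miR-150 (95% interval -1.86 to 0.76, adjusted p = 0.983) and -0.43 for p21 (95% interval -1.74 to 0.87, adjusted p = 0.948). For CD68 probe 2359907 it was -0.40 for miR-150 (95% interval -0.76 to -0.04) and -0.51 for p21 (95% interval -0.86 to -0.15, adjusted p = 0.849). The CD68 probes did not give the same size. Probe 1714861, the brightest, differed by -0.16 for miR-150 (95% interval -0.46 to 0.14) and -0.38 for p21 (95% interval -0.68 to -0.08). Probe 2267914 differed by -0.09 and 0.04. CD36 probe 1784863 differed by -0.58 (95% interval -1.05 to -0.11) and -0.47 (95% interval -0.94 to 0). SCARB1 differed by 0.31 for miR-150 (95% interval -0.03 to 0.66) and by 0.20 for p21 (95% interval -0.15 to 0.55). MARCO, SCARB2 and CXCL16 had differences between -0.14 and 0.02. By limma's test 0 receptor probes passed in either comparison, against 0.00444% of kept probes in each, and 3 receptor probes in each had an unadjusted p under 0.05, as had 4.38% of kept probes for miR-150 and 5.78% for p21. The CD163 intervals reach more than 1 log2 unit below 0, so a weaker response of that size is not excluded. They rest on 1 spread shared by all 6 groups. On probe 1722622 the SD was 0.0308 to 0.0793 in the ECV groups, near background, and 0.554 to 1.33 in the KLF4 groups. The CD163 intervals may thus be too narrow.

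These differences turned on the non-targeting arrays with KLF4. Without NT-2 with KLF4 the CD163 differences changed sign, to 0.389, 0.182 and 0.214 on probes 1722622, 1733270 and 2379599 for miR-150 and to 0.505, 0.244 and 0.428 for p21. Leaving out NT-3 with KLF4 instead gave -1.49, -1.35 and -1.43 for miR-150 and -1.37, -1.29 and -1.22 for p21. In the fit without NT-3 calls went up, both for receptor probes and over all kept probes. Each of these fits leaves a single line in the non-targeting group with KLF4. Its test therefore does not hold the spread between the non-targeting lines. The sign of the CD163 differences thus depended on which of the 2 non-targeting lines was kept, and with both kept they were smaller than the 1.88 log2 units by which those lines differed with KLF4.

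**Figure D4:**
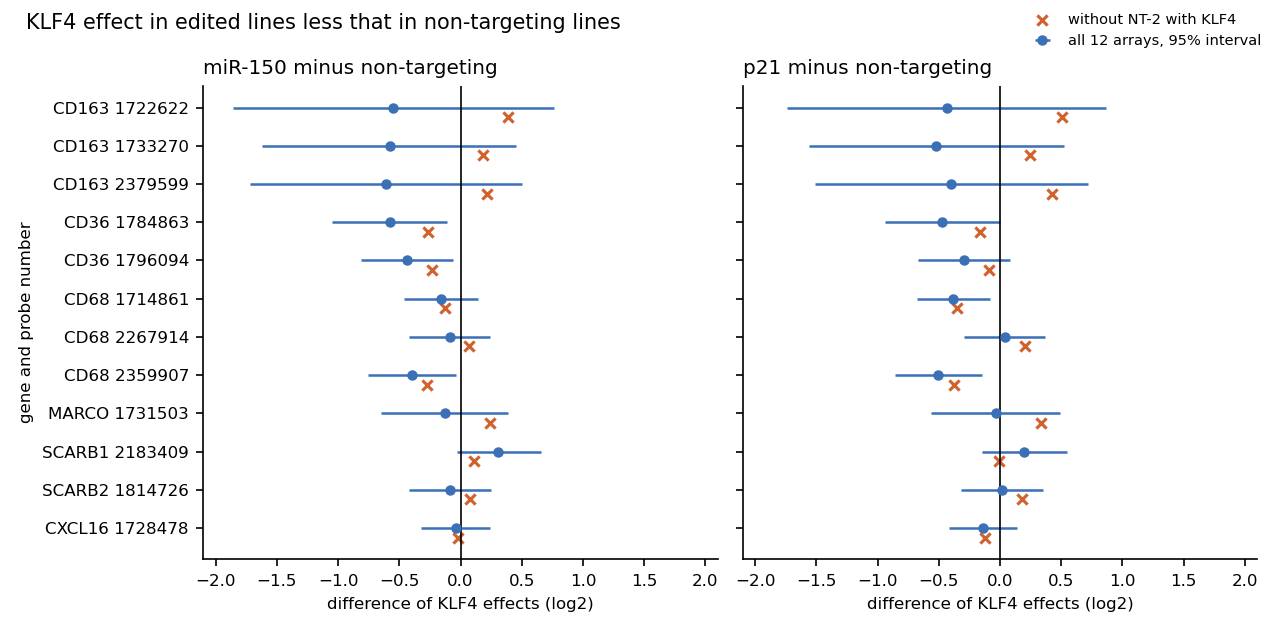
Difference of the KLF4 effect between edited and non-targeting lines (horizontal axis, log2) for each kept scavenger receptor probe, for miR-150 (left) and p21 (right), with circles and 95% intervals from all 12 arrays and crosses without the NT-2 array with KLF4. The CD163 circles lie below 0 with intervals that span it, and the crosses of CD163 and MARCO lie above 0.

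Levels were also compared between edited and non-targeting lines under the same virus. With ECV the receptor probes differed by -0.18 to 0.32 in miR-150 lines and by -0.17 to 0.23 in p21 lines, and 0 passed or had an unadjusted p under 0.05. The background was 0% of kept probes called for miR-150 and 0.00444% for p21. CD163 probe 1722622 differed with ECV by 0.04 and -0.05, at levels where it was near background. With KLF4 the receptor probes differed by -0.60 to 0.14 in miR-150 lines, where 0 were called, 0 had an unadjusted p under 0.05 and 0% of kept probes were called. In p21 lines with KLF4 they differed by -0.49 to 0.10 and 0 were called, against 0.04% of kept probes. CD68 probes 1714861 and 2359907 at -0.32 and -0.27 and CD36 probe 1784863 at -0.46 had unadjusted p-values of 0.00584, 0.0357 and 0.0101 there, where 10.1% of kept probes were under 0.05, and adjusted p-values of 0.335, 0.47 and 0.354. Without NT-3 with KLF4 more receptor probes passed in each of the comparisons with KLF4, as did more of all kept probes. That test does not hold the spread between the non-targeting lines with KLF4.

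Most other scavenger and uptake receptors were below background. For this and the following lists each gene was read on its brightest kept probe, and 17.8% of 12137 genes were called higher with KLF4 and 22.6% lower, with a median difference of -0.014. Of 22 further receptors 8 were tested, 3 rose, 0 fell and 5 did not pass, with a median of 0.08. CD44, the hyaluronan receptor, rose by 0.43 (SE 0.0712, adjusted p = 0.00024), MERTK, a receptor for dying cells, by 0.70 (SE 0.145, adjusted p = 0.00151), and CD14, the coreceptor for lipopolysaccharide, by 0.61 (SE 0.165, adjusted p = 0.00896). In NT-2 MERTK differed by 1.55 and CD14 by 1.41, the highest of the 6 lines, whose lowest were 0.38 and 0.29. Within miR-150 and p21 lines neither gene passed, with adjusted p-values of 0.129 and 0.234 for MERTK and 0.354 and 0.273 for CD14. SCARF2 differed by -0.14 (adjusted p = 0.0666). CD163L1, the closest relative of CD163, named here although the rule for listing genes did not pick it, was bright at 10.93 with ECV and 10.79 with KLF4 and differed by -0.15 (adjusted p = 0.256). MRC1, LRP1, CLEC7A, STAB2 and TREM2 were among the 14 that were not above background on 2 arrays.

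Genes that handle haemoglobin and haem, the cargo of CD163, were in part raised. Of 12 tested 5 rose, 0 fell and 7 did not pass, with a median of 0.07. HMOX1, haem oxygenase, went from 7.78 ± 0.153 to 8.75 ± 0.366 (SD, n = 6 lines), a rise of 0.96 (adjusted p = 3.37e-06). BLVRA, which reduces the biliverdin that haem oxygenase makes, rose by 0.80 (adjusted p = 1.79e-07), and HP, haptoglobin itself, by 0.92 (adjusted p = 5.74e-08). NFE2L2, the transcription factor NRF2 that drives HMOX1, rose by 0.70 (adjusted p = 1.85e-07). FTL, the ferritin light chain, also named outside the rule, was near the top of the scale with both viruses, at 14.57 and 14.61 (adjusted p = 0.68).

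The list on receptor shedding holds the proteases that cut receptors from the surface, their helpers and inhibitors, and the CXCL16 receptor CXCR6. Of 7 tested 6 rose and 0 fell, with a median of 0.34, and 5 rose without the NT-2 array with KLF4. TIMP1, which inhibits metalloproteinases, rose by 1.44 (SE 0.078, adjusted p = 2.95e-09). ADAM17, which sheds CD163, rose by 0.37 (adjusted p = 0.000831), and ADAM10, which sheds CXCL16, by 0.53 (adjusted p = 1.37e-06). FRMD8, which stabilises the complex of ADAM17 with iRhom proteins, rose by 0.30 (adjusted p = 0.000731).

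Of 21 genes of lipoprotein and fatty acid handling 13 rose, 1 fell and 7 did not pass, with a median of 0.29. PLIN2, which coats lipid droplets, rose by 0.68 (adjusted p = 1.16e-06), ACSL1, which activates fatty acids, by 1.08 (adjusted p = 1.48e-06) and NPC2, which moves cholesterol out of lysosomes, by 0.53 (adjusted p = 3.84e-06). FYN, a kinase that acts downstream of CD36, rose by 0.68 (adjusted p = 1.33e-06). PPARG, a nuclear receptor that induces CD36, rose by 0.16 (adjusted p = 0.0212) while CD36 itself did not pass, and is named although the rule did not pick it. LRPAP1, a chaperone of lipoprotein receptors, fell by 0.25 (adjusted p = 0.00245), and is named as the 1 gene of the list called lower.

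Among 11 lysosomal membrane genes and relatives of SCARB2 and CD68, 5 rose, 1 fell and 5 did not pass, with a median of 0.13. LAPTM5 rose by 0.60 (adjusted p = 0.000136), IGF2R, the receptor for mannose 6-phosphate, by 0.30 (adjusted p = 0.000624) and LAMP1 by 0.25 (adjusted p = 0.00123). LAMP5, a member of the family of CD68, fell by 1.07 (SE 0.0648, adjusted p = 9.37e-09). CD68 and LAMP5 thus moved in opposite directions.

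Known regulators of CD163 and of macrophage scavenger genes were read last. Of 17 tested 9 rose, 2 fell and 6 did not pass, with a median of 0.32, and after cyclic loess or normexp correction 10 rose and 0 fell, the 2 lower calls being CEBPA and FKBP5. CEBPB rose by 1.31 (adjusted p = 4.87e-10). IL10RA and STAT3, the receptor chain and the transcription factor through which interleukin 10 induces CD163, rose by 1.21 (adjusted p = 5.71e-08) and 1.12 (adjusted p = 5.44e-07), and BHLHE40 rose by 0.65 (adjusted p = 1.1e-07). No gene of these 6 lists was called in a comparison of edited with non-targeting lines.

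**Figure D5:**
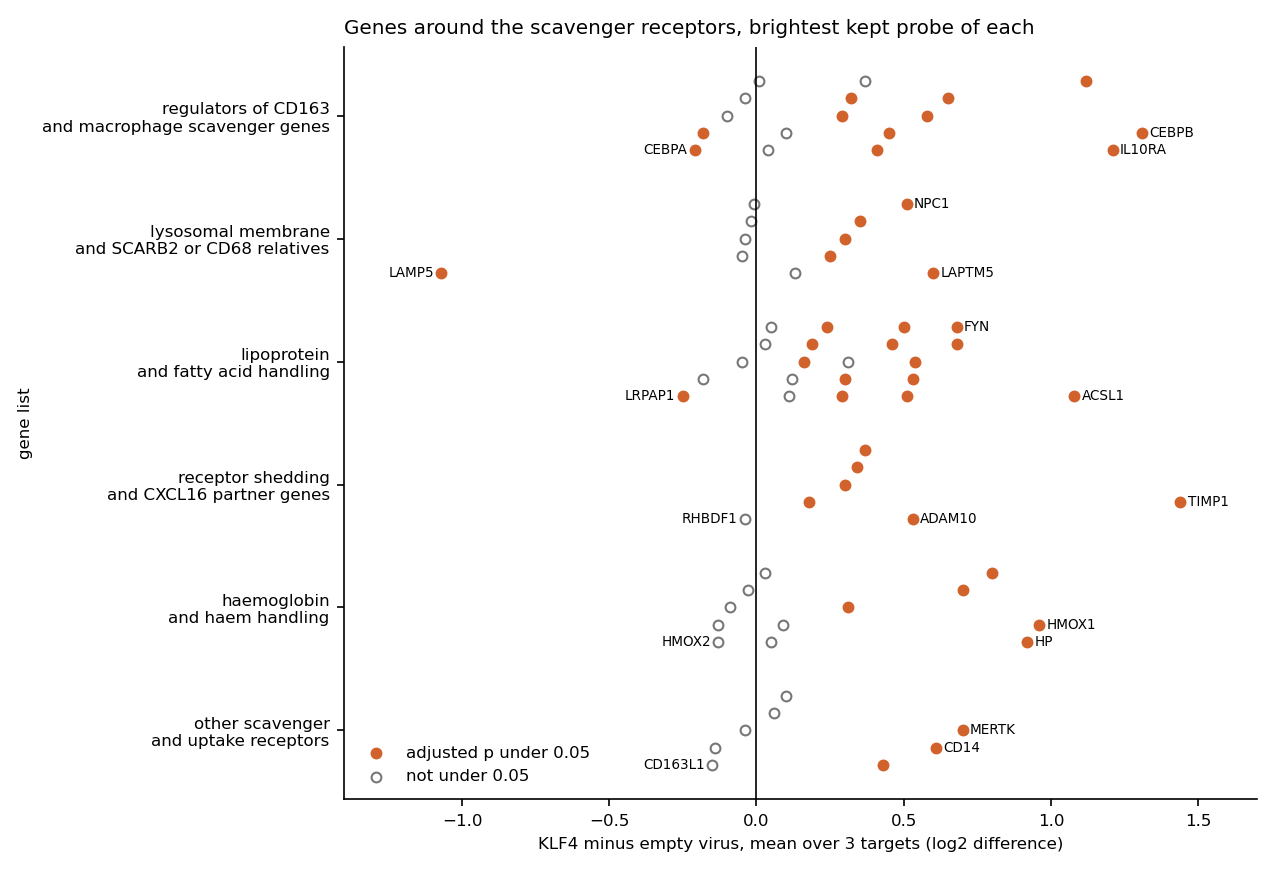
Mean KLF4 minus empty virus difference (horizontal axis, log2) of each tested gene of the 6 related gene lists (vertical axis, spread within a list for legibility), filled where the adjusted p was under 0.05, with the lowest and the 2 highest genes of each list labelled. Most filled points lie above 0, with TIMP1 at 1.44, CEBPB at 1.31 and IL10RA at 1.21 the highest, and LAMP5 lies lowest at -1.07.

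Monocytic markers differed in both directions. Of 15 tested 8 rose, 3 fell and 4 did not pass, with a median of 0.24. The integrin ITGAM rose by 3.03 (adjusted p = 4.38e-13), ELANE by 0.87 (adjusted p = 1.05e-05) and FCGR2A by 0.97 (adjusted p = 6.35e-05), and PRTN3 fell by 0.63 (adjusted p = 2e-07). Their summed linear intensity ran from 43474 to 47298 with ECV and from 51621 to 59007 with KLF4. Of the marker lists for other cells, PDGFRB, of fibroblasts and pericytes, was called at 0.37 and TEK, of endothelium, at 0.14, both at levels of at most 7.587. The TEK call ended with the CRISPR line as a replicate block and without the NT-2 array with KLF4, each of which left 0 of the endothelial list called. Among the 7 lists for other cells, summed intensities overlapped between viruses for all but that of megakaryocytes. The part of these markers in the receptor values was not tested.

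Finally, the genes whose pattern over the 12 arrays lay nearest to CD163 and CD68 were listed by the root mean square difference, each probe first taken less its own ECV mean. For CD163 probe 1722622 these were LILRA3, a soluble leukocyte receptor, at 0.19 log2 units, TREM1, an activating receptor of monocytes and neutrophils, at 0.445, and CD52, a small leukocyte surface glycoprotein, at 0.646. LILRA3 had the same order of lines in its KLF4 minus ECV differences, at 5.10 in NT-2, 3.84 in NT-3, 3.64 in 150-3, 4.19 in 150-4, 3.96 in p21-2 and 4.23 in p21-3. CD52 did not, and its 6 lines lay between 4.44 and 4.79. These genes were picked for closeness to CD163 on the same arrays, so a shared order of lines is no support. For CD68 probe 1714861 the nearest were FXYD5 at 0.0925, LFNG at 0.113 and SGK1 at 0.115, with mean KLF4 differences of 1.11, 1.24 and 1.18.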

How the data were processed

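Biotin-labelled cRNA from total RNA of 12 THP-1 samples was measured on 1-colour Illumina bead arrays, per the labels' protocols. The deposited table holds log2 values between 6.69 and 14.8 that appear normalized between arrays, since every array has a median of 7.17. That the scale is log2 was read from these values, and the authors' background correction and normalization are not stated. A second table of raw intensities, with 24 columns whose names match no sample, was not used. The number of arrays limits the precision.

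Each probe was tested with limma 3.58.1 in R 4.3.3, with 1 mean for each of 6 groups of 2 arrays, no block and 6 residual degrees of freedom, and p-values were adjusted by Benjamini-Hochberg over all 22521 kept probes. A call is an adjusted p under 0.05. Probes were kept when above 7.26 on 2 or more arrays, where 7.26 is the 95th percentile of the values below the mode (7.088) and their mirror image. Folds near it may be too small. Dim probes were compared with an exact permutation test. Of the probes, 30113 had 1 gene symbol in the platform annotation, 8 several and 17202 none, and 30074 were matched to RefSeq by gene ID. The fit was tested on simulated data, in which each probe had the same spread in all groups and the changed probes were drawn at random. A true log2 difference of 0.5 was called for 100% of changed probes in the mean KLF4 effect and 76% in non-targeting lines. For the p21 difference from non-targeting lines it was called for 14%, and a true difference of 1 for 99%. Differences of KLF4 effects near 0.5 would thus mostly be missed. These shares do not hold for CD163, which varied more between lines with KLF4. On its probe 1722622 the p21 difference had an SE of 0.613, so even a difference of 1 could be missed there.

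The genes and lists were chosen with earlier results of these data known. Named from each list are the 4 genes of smallest p, with a few others marked or chosen after their values were seen (such as LRPAP1, CEBPA and FKBP5), and as most alike the 3 genes with the smallest root mean square difference from CD163 and CD68. The labels give each CRISPR line with both viruses, which pairs the arrays. Same-line deviations from the group means had correlations of 0.0735 for the non-targeting target, 0.0632 for p21 and -0.0402 for miR-150. Alternatives were other filters, cyclic loess, normexp (offset 50), other variance models, array weights, a replicate block, fewer groups, 1 probe per gene and leaving out each array. Figures were drawn with matplotlib 3.10.9.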

Additional observations from a re-analysis of the deposited data

Results flagged for a closer look

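A few dim probes had lines of one CRISPR target that all moved one way with KLF4 and lines of another that all moved the opposite way. None of the probes was above background on 2 arrays. In the limma fit without a filter the differences from non-targeting lines did not pass (adjusted p = 0.976 for MSR1 and 0.991 for CD36). Those between p21 and miR-150 lines were not tested. MSR1 probe 1743301 had a mean KLF4 minus ECV difference in p21 lines that exceeded that in miR-150 lines by 0.05. MSR1 probe 2373285 differed between p21 and non-targeting lines by -0.08 and between p21 and miR-150 lines by -0.25. CD36 probe 1665132 differed between miR-150 and non-targeting lines by 0.22 and between p21 and miR-150 lines by -0.12.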

How the results depend on the processing

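The calls of CD163, CD68, MARCO, SCARB2 and SCARB1 in the mean KLF4 effect held under all alternatives run. CD163 probe 1722622 ranged from 3.83 to 4.45 when each array was left out. The receptor probes called ranged from 9 to 12 without 1 array. With the CRISPR line as a replicate block, CD36 probe 1796094 passed at -0.184 (adjusted p = 0.0346), as it did in miR-150 lines at -0.377 (adjusted p = 0.0359), and the block changed no other call of a receptor probe. The neqc alternative on raw intensities was not run, since their columns match no sample. Depth on arrays limits the dim probes, which lie at background.

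Each array was also left out in turn. The differences of KLF4 effects from non-targeting lines then kept their sign for CD68 probes 1714861 and 2359907 and both kept CD36 probes. For the other receptor probes the differences changed sign in some of these fits, for miR-150, p21 or both. For miR-150 they ranged from -1.49 to 0.389, -1.35 to 0.182 and -1.43 to 0.214 for CD163 probes 1722622, 1733270 and 2379599, from -0.251 to 0.0709 for CD68 probe 2267914, from -0.109 to 0.0357 for CXCL16, from -0.495 to 0.239 for MARCO and from -0.251 to 0.079 for SCARB2. For p21 they ranged from -1.37 to 0.505, -1.29 to 0.244 and -1.22 to 0.428 for the CD163 probes, from -0.12 to 0.202 for CD68 probe 2267914, from -0.4 to 0.333 for MARCO, from -0.00879 to 0.407 for SCARB1 and from -0.146 to 0.183 for SCARB2, which was -0.0206 with cyclic loess. The effect in non-targeting lines ranged from -0.126 to 0.49 and from -0.145 to 0.262 for CD36 probes 1784863 and 1796094, and that in p21 lines from -0.00786 to 0.178 for CXCL16.

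Over the same fits, receptor probes called ranged from 0 to 6 for the miR-150 difference, 0 to 5 for the p21 difference, and 0 to 6 for each of miR-150 and p21 against non-targeting lines with KLF4. The highest counts came without NT-3 with KLF4, where 567, 734, 1283 and 1897 of all kept probes were called in the same order. Genes called by their brightest kept probe ranged from 0 to 3, 0 to 1, 0 to 3 and 0 to 3. For the KLF4 effect itself, probes called ranged from 4 to 9 in miR-150 lines and 5 to 9 in p21 lines, and genes from 3 to 5 in non-targeting lines and 2 to 4 in p21 lines. With only the groups of the comparison fitted, 3 genes were called in non-targeting lines. Apart from fewer samples in these fits, the cause was not tested. A fit without 1 array leaves 1 array in that group, so its test does not hold the spread between the lines of the group.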
